A study of Mus musculus with 120 samples.

Results

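Cells measure their cholesterol with a small set of membrane proteins, and 6 of the genes that build this sensor and its outlets were followed across mouse livers. They were Srebf2, Scap, Insig1, Insig2, Stard4 and Vldlr, taken by symbol from a table of 24883 genes, in which each of the 6 had 1 row. RNA came from whole livers of 10 Collaborative Cross strains, inbred mouse lines that each carry their own mosaic of several founder genomes. The strains, in reverse order of their numbers, were CC060, CC043, CC042, CC041, CC040, CC032, CC019, CC013, CC011 and CC003. In each strain, males and females were kept for 12 weeks on an obesogenic high-fat, high-sucrose (HF/HS) diet or on a control diet of matched ingredients with little fat and less sucrose. Milkfat gave 42% of the energy of the HF/HS diet, which also held 0.2% cholesterol and over 30% sucrose. Each of the 40 groups had 3 libraries. The columns of CC040 female HF/HS 1 and CC040 female control 3 held the same values and were left out. This left 59 HF/HS libraries (30 male, 29 female) and 59 control libraries (30 male, 29 female). The labels do not tell whether libraries sharing a group stem from different mice, so the p-values measure the spread between these libraries, which may be technical.

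SREBP2, the product of Srebf2, is a transcription factor made as an inactive precursor in the membrane of the endoplasmic reticulum. SCAP escorts it to the Golgi, where proteases release its active part. When sterols are plentiful, SCAP binds INSIG1 or INSIG2 and the complex stays behind, so that genes of cholesterol synthesis and lipoprotein uptake are transcribed less. Srebf2, Insig1 and Stard4 are themselves known targets of SREBP2. Insig2 is known in mouse liver for a transcript that insulin represses. STARD4 carries cholesterol between membranes, and VLDLR is a receptor for triglyceride-rich lipoproteins that is normally scarce in liver.

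Promoter windows from RefSeq (GRCm38.p6, 250 bases before to 50 after a start) were at hand for 5 of the 6 genes, in 9 windows. Those of Srebf2 and Insig1 are shown because both genes fell and each had 1 start. They cover the 200 bases before the start, chr15:82147069-82147268 and chr5:28071212-28071411, both on the plus strand. Capitals mark matches on either strand to the letters of the sterol regulatory element without its last base (TCACNCCA), to CCAAT and to the E-box CACGTG.
Srebf2: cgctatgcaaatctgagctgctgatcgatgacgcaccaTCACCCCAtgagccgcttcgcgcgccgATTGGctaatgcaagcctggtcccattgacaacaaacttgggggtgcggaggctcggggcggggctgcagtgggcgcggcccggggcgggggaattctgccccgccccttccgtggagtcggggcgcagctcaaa
Insig1: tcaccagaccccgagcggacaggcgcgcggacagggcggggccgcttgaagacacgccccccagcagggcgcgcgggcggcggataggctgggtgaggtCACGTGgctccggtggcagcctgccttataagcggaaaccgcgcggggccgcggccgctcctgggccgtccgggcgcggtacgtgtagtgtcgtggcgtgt

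The TCACNCCA match of Srebf2 began 162 bases before the start and its CCAAT match, on the opposite strand, 135 bases before. In Insig1 the E-box began 101 bases before the start, and a CCAAT match lay 216 bases before it, outside the printed stretch. Of all 32851 RefSeq mouse windows of this length, 4.36% held the sterol element without its last base, 37.4% held the CCAAT box and 7.15% held the E-box, which reads the same on both strands. The full sterol element TCACNCCAC, which contains the shorter form, was in 1.24% of all windows and in none of the 9. Both Scap windows held the same E-box. CCAAT was also found in 1 window of Insig2 and 1 of Vldlr. These matches describe letters, not binding. On mm10, the build of the deposited table, the whole genes span chromosome 15 from 82147269 to 82204960 (Srebf2), chromosome 9 from 110333288 to 110384949 (Scap), chromosome 5 from 28071412 to 28078662 (Insig1), chromosome 1 from 121304353 to 121332589 (Insig2), chromosome 18 from 33201421 to 33213816 (Stard4) and chromosome 19 from 27217020 to 27254231 (Vldlr).

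Values are on the FPKM scale, fragments corrected for transcript length and library size, rescaled by the authors so that the upper quartile of every library was close to 10. Differences are given as log2(value + 1), HF/HS minus control, as the mean over the 20 strain and sex groups with its standard error (SE) unless another set is named. A gene was called, and is said to have risen or fallen, at an adjusted p under 0.05 in limma with Benjamini-Hochberg adjustment over the 12203 genes tested. All 6 genes passed the filter of a mean of at least 1, Vldlr at 1.76 only through the strains and the sex where it was high. Of all genes tested, 17.2% rose and 15.4% fell on the HF/HS diet. In the 8 strains other than CC003 and CC060, the depth of a library relative to the median library was 0.763 to 1.58, with a median of 1.001 on HF/HS and 1.004 on control. In CC060 it was 0.772 to 1.36. CC003 was shallow, at 0.0712 to 0.127, and its values summed to 3192062 to 4629890 units, against 943609 to 1365538 in the 8 strains. Levels in CC003 and CC060 were not ranked with those of the 8 strains, because earlier results of these data set their libraries apart.

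Srebf2, the transcription factor, fell on the HF/HS diet by 0.42 ± 0.0440 (SE, adjusted p = 5.84e-13). It averaged 8.92 ± 3.46 in HF/HS livers and 12.3 ± 4.68 in control livers (SD, n = 59 each, strain differences included). HF/HS libraries ran from 2.48 through a median of 8.48 to 19.8, and control libraries from 5.56 through 11.04 to 27.0. The ranges over all strains overlapped, but within groups they mostly parted: in 13 of the 20 strain and sex groups every HF/HS library lay below every control library, where 10.6% of gene and group pairs did so over all genes. In CC019 females, Srebf2 had 9.53, 9.70 and 7.35 in HF/HS livers, against 14.2, 18.0 and 16.8 in control livers. In CC032 males it had 5.12, 3.70 and 2.48 in HF/HS livers, against 5.77, 7.09 and 9.43 in control livers. In both groups the sets of 3 libraries did not overlap. CC011 had the strain difference nearest 0, -0.03 ± 0.138, which was not called. CC011 males had 9.29, 9.25 and 16.1 on the HF/HS diet, against 11.04, 7.996 and 10.6 on the control diet. In whole liver, fewer cells of a type and less RNA per cell cannot be told apart.

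Taken strain by strain, Srebf2 fell in 6 of 10 (CC003, CC019, CC032, CC041, CC043 and CC060), where 2.2% of gene and strain pairs fell over all genes. The largest strain difference was -0.74, in CC019. In single strain and sex groups it fell in 4 of 20, where 1.5% of all gene and group pairs did. The groups differ in this: in CC060 males, 1 of the 4, 12.4% of all genes fell. The test for unequal diet effects among strains did not call it (adjusted p = 0.121). That test called it without the libraries of CC003 and CC060 (adjusted p = 0.0329), and also without CC060 male control 3 alone (adjusted p = 0.0467). Over all genes, 5.54% were called by that test.

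Scap, the escort, fell by 0.29 ± 0.0397 (adjusted p = 6.51e-09), the smallest of the falls among these genes. It averaged 36.8 ± 8.80 in HF/HS livers and 45.4 ± 10.8 in control livers (SD, n = 59 each). The strain difference was below 0 in 10 of 10 strains and Scap fell in 3 of them, CC003, CC041 and CC042, where 2.2% of gene and strain pairs fell over all genes. In CC042 males it had 32.6, 28.4 and 33.7 in HF/HS livers, against 47.0, 47.0 and 50.9 in control livers. All HF/HS libraries lay below all control libraries in 8 of 20 groups, including both sexes of CC042, where 10.6% of all gene and group pairs did so. In CC013 the means were close: its HF/HS libraries averaged 33.3 ± 1.97 and its control libraries 33.6 ± 4.80 (SD, n = 6 each).

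**Figure D1:**
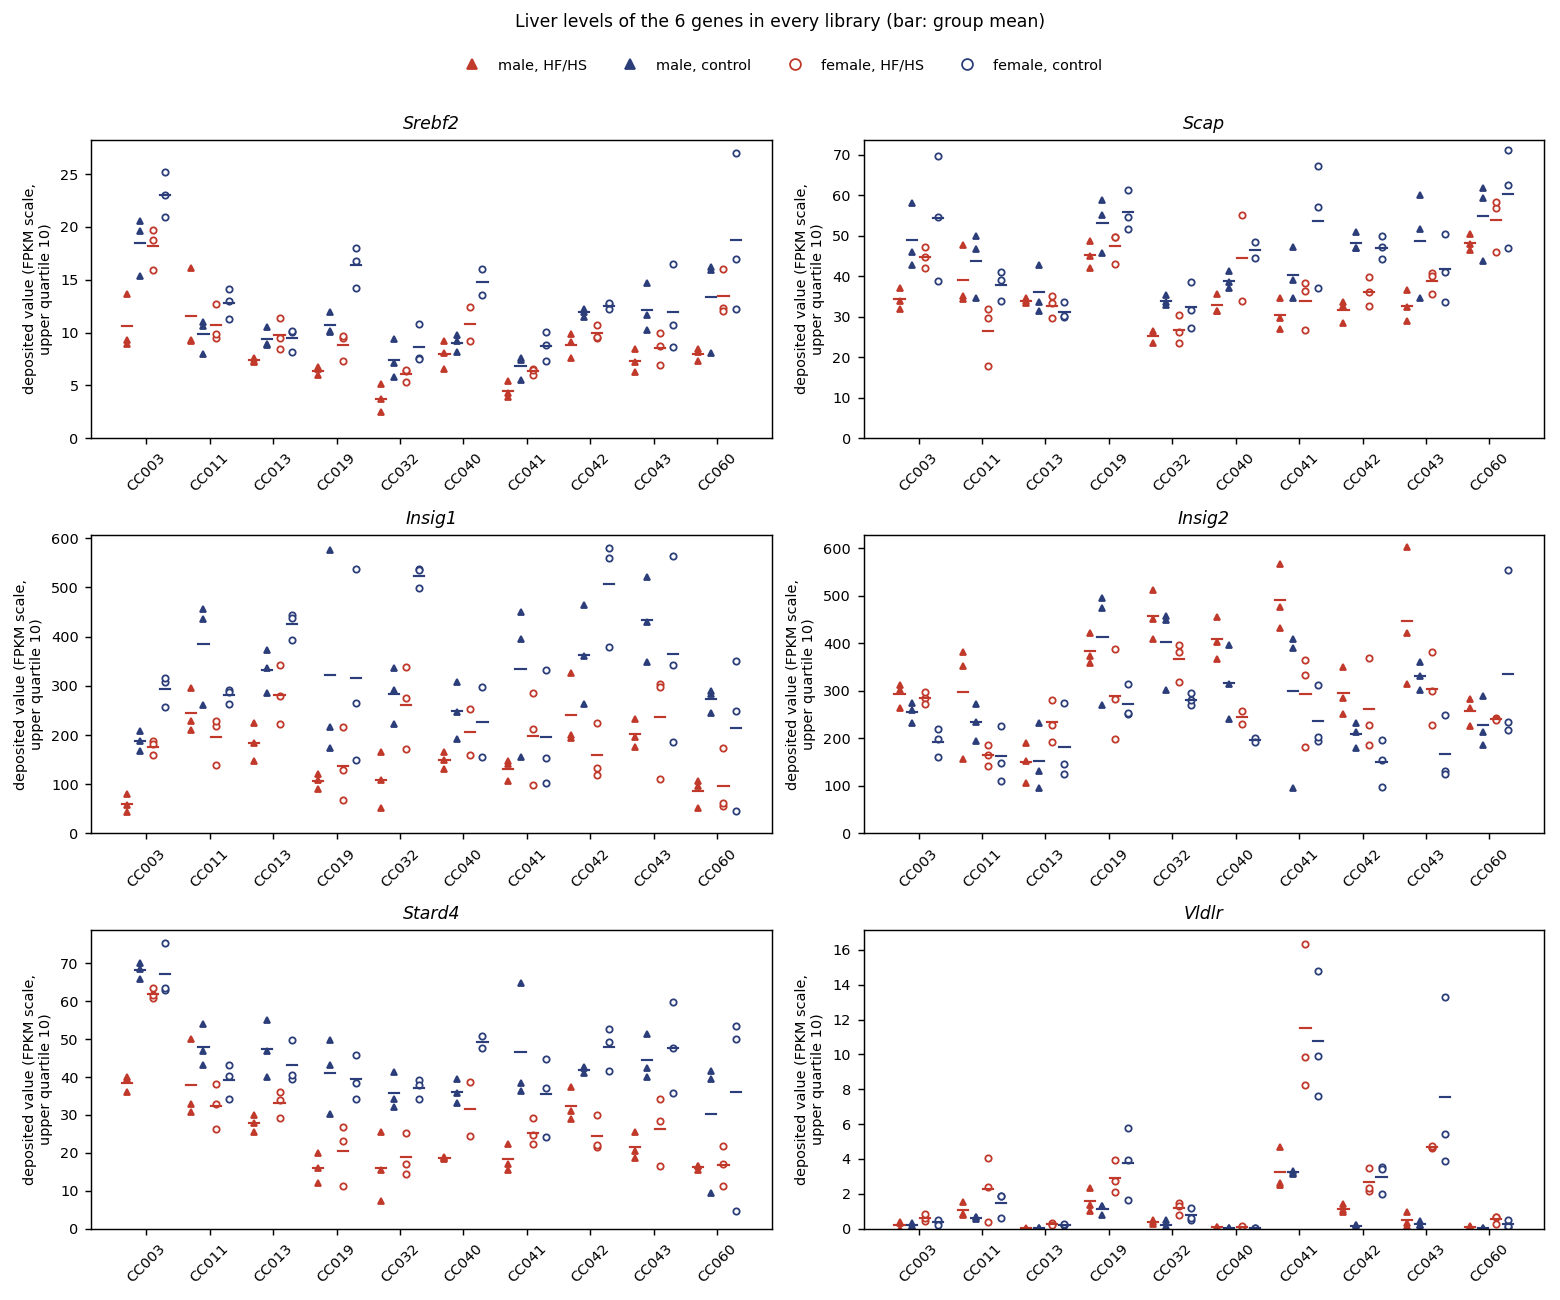
Deposited values of the 6 genes (y, FPKM scale) in every library by strain (x). Triangles are males and circles females, red is HF/HS and blue is control, and bars are group means. Srebf2, Scap, Insig1 and Stard4 are lower in HF/HS libraries of most groups, and Vldlr is highest in CC041 females.

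Insig1, the retention protein whose gene answers to SREBP2, had the largest difference of the 6, a fall of 0.94 ± 0.104 (adjusted p = 9.90e-12). It averaged 173 ± 78.0 in HF/HS livers and 327 ± 131 in control livers (SD, n = 59 each). HF/HS libraries ran from 43.6 through a median of 166 to 342, and control libraries from 44.8 through 307 to 580.1. In CC042 females, Insig1 had 223, 119 and 134 on the HF/HS diet, against 580.1, 560.1 and 379 on the control diet. In CC060 males it had 95.8, 108 and 52.6 on the HF/HS diet, against 245, 284 and 289 on the control diet. The libraries of both groups did not overlap. This was so, with HF/HS lower, in 13 of 20 groups, of which 8 were male and 5 female, where 10.6% of all gene and group pairs did so. Insig1 fell in 5 of 10 strains, where 2.2% of gene and strain pairs fell over all genes. The tests for unequal effects among strains (adjusted p = 0.661) and between the sexes did not call it. Its difference was -1.14 ± 0.145 in males (adjusted p = 1.92e-09) and -0.73 ± 0.149 in females (adjusted p = 0.000193). Over all genes, 11.0% rose and 9.93% fell in males, and 9.6% rose and 8.08% fell in females. Male minus female, the gap between the sexes was -0.40 ± 0.208 (unadjusted p = 0.0565, adjusted p = 0.447).

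The low end of the Insig1 control range was 1 library, CC060 female control 1, with 44.8 beside 350.0 and 249 in the other CC060 female control libraries. The same library had 4.79 for Stard4, beside 49.9 and 53.4, and 554 for Insig2, beside 234 and 217. Its mean log2(value + 1) over 20 cholesterol synthesis enzymes was 3.71, below the next lowest control library (5.17) and below the lowest HF/HS library (3.82). Without it, Insig1 fell in CC060 females by 1.80 ± 0.466 (adjusted p = 0.0210), where the difference with it was -0.90 (adjusted p = 0.349). Without it, Insig1 was called in 5 single groups, against 3 with it, and Stard4 in 6, against 1 with it. Over all genes, 1.5% of gene and group pairs fell with it in, and the share without it was not taken. All groups share 1 estimate of the spread, so leaving out this library can also change calls in other groups. The choice to leave it out was made after the values were seen. The diet of this library is taken from its label, which may be wrong and could not be checked here. The call of each of the 6 genes over all strains stayed the same without it.

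Insig2, the second retention protein, went the other way and rose by 0.32 ± 0.0752 (adjusted p = 0.000413). It averaged 309 ± 107 in HF/HS livers and 252 ± 103 in control livers (SD, n = 59 each). HF/HS libraries ran from 107 through a median of 298 to 603, and control libraries from 96.1 through 234 to 554. Groups overlapped more often than for the genes that fell, and HF/HS libraries lay above all control libraries in 5 of 20 groups, where 11.1% of all gene and group pairs did so. CC003 females were 1 of the 5, with 285, 298 and 272 on the HF/HS diet, against 160.4, 198 and 219 on the control diet. CC041 males had the largest difference (0.97, adjusted p = 0.0720), with 477, 566 and 431 on the HF/HS diet, against 96.2, 391 and 410.0 on the control diet. The control library at 96.2 stood far below the other control libraries. No single strain was called, where 2.36% of gene and strain pairs rose over all genes. The rise was called in males (0.30 ± 0.105, adjusted p = 0.0282) and in females (0.34 ± 0.108, adjusted p = 0.0177). With 1 value per strain as the unit, it was called over both sexes (adjusted p = 0.0133) but neither in males (adjusted p = 0.0574) nor in females (adjusted p = 0.0747). The calls within a sex were also lost without CC042 (adjusted p = 0.0666 in males and 0.0717 in females) or without CC043 (adjusted p = 0.0545 in males and 0.0917 in females). Leaving out 1 replicate number in 1 sex and diet, the call was kept in 8 of 12 settings in males (adjusted p up to 0.224) and in 9 of 12 in females (adjusted p up to 0.128).

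The order of the pair within a library differed by diet. As values per transcript length, Insig2 exceeded Insig1 in 47 of 59 HF/HS libraries and in 18 of 59 control libraries. The median ratio of Insig2 to Insig1 was 1.80 in HF/HS libraries and 0.753 in control libraries. In males the medians were 2.88 on HF/HS and 0.899 on control, and in females they were 1.41 on HF/HS and 0.626 on control. The group median was higher on the HF/HS diet in 20 of 20 strain and sex groups. The ratio joins 2 differences already tested, so it was given no test of its own.

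**Figure D2:**
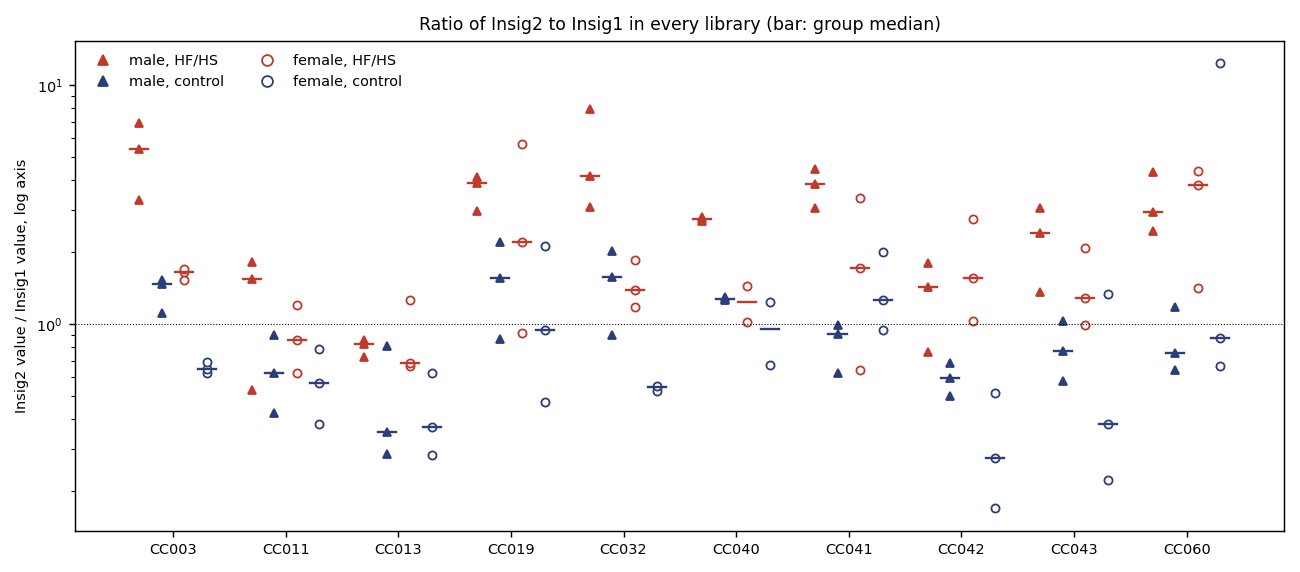
Ratio of the Insig2 value to the Insig1 value (y, log axis) in every library by strain (x), with group medians as bars; the dotted line is equality. Red HF/HS medians lie above the blue control medians of the same sex in all 20 groups, and 1 CC060 female control library stands at 12.4.

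Stard4, the cholesterol carrier, fell by 0.74 ± 0.0836 (adjusted p = 1.59e-11). It averaged 26.7 ± 11.9 in HF/HS livers and 44.03 ± 12.7 in control livers (SD, n = 59 each). The difference was below 0 in 20 of 20 groups, and HF/HS libraries lay below all control libraries in 14, where 10.6% of all gene and group pairs did so. Of the 20 groups, Stard4 was called in CC041 males alone (-1.27 ± 0.369, adjusted p = 0.0329), where 1.5% of all gene and group pairs fell. In CC040 males, Stard4 had 18.6, 18.4 and 19.0 in HF/HS livers, against 35.9, 39.4 and 33.1 in control livers. In CC019 males it had 12.1, 20.01 and 16.0 in HF/HS livers, against 49.9, 30.4 and 43.1 in control livers. Neither pair of sets overlapped. Stard4 fell in 4 of 10 strains (CC019, CC032, CC041 and CC043), and in 6 without CC060 female control 1, where 2.2% of gene and strain pairs fell over all genes with that library in. CC060 was then among them, with a fall of 1.11 ± 0.213 (adjusted p = 0.000113). CC060 male control 3 was also low, at 9.41 beside 39.5 and 41.6, and its values summed to 1986963 units, the highest sum outside CC003.

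On the control diet, strain means of Stard4 in the 8 ranked strains ran from 46.2 in CC043 to 36.4 in CC032, and every neighbour in the order overlapped. The F test did not call it (adjusted p = 0.922), where 86.5% of all genes were called. With all 10 strains entered it was called (adjusted p = 0.000999886), and CC003 control livers held 67.7 ± 4.62 (SD, n = 6). Among the other genes the order was headed by CC019 for Srebf2 (13.5), Scap (54.5) and Insig2 (343), and by CC042 for Insig1 (434). The lowest means were 7.78 for Srebf2 in CC041, 33.2 for Scap in CC032, 167 for Insig2 in CC013 and 239 for Insig1 in CC040. Neighbours in each of these orders overlapped. Strains differed for Srebf2 (adjusted p = 1.25e-06), Scap (adjusted p = 1.56e-06) and Insig2 (adjusted p = 3.91e-05), and Insig1 was just outside (adjusted p = 0.0600). These tests compare the 8 strains in a fit whose estimate of the spread also uses CC003 and CC060. With the libraries of those strains out of the fit too, the same comparison of the 8 strains called Insig1 (adjusted p = 0.0325).

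Vldlr, the lipoprotein receptor, was not called by diet, and its levels were spread widely over strains and sexes. On the control diet, strain means were 6.99 ± 4.74 in CC041, 3.91 ± 5.11 in CC043, 2.46 ± 1.96 in CC019, 1.58 ± 1.63 in CC042, 1.04 ± 0.653 in CC011 and 0.498 ± 0.395 in CC032 (SD, n = 6 each). Below these came CC013 at 0.123 ± 0.102 (SD, n = 6) and CC040 at 0.0358 ± 0.0198 (SD, n = 5). Neighbours in the order overlapped, but CC041 (lowest library 3.12) lay wholly above CC011 and the strains after it. CC041 exceeded CC032 by 14.03-fold in the means. These levels are given with no test, since the gene passed the filter only where it was high.

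The low values of Vldlr probably rested on few reads. Divided by the relative worth of 1 read in each library, 39 of the 41 smallest Vldlr values came within 0.15 of a whole multiple of 1 fixed step. The step was chosen to bring these same values close to whole multiples. The 41 also include 3 values of 0, which fit any step. The count is therefore no test of whole reads, and the steps are only a rough guide. Counted in such steps, CC041 libraries held 301 to 2445, CC032 libraries 7 to 217, CC013 libraries 0 to 42, CC060 libraries 0 to 90, CC040 libraries 2 to 21 and the shallow CC003 libraries 0 to 11. Vldlr was listed at 0 in 3 libraries, and 28 of 118 held under 10 steps. No order among the lowest strains is read from these values.

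**Figure D3:**
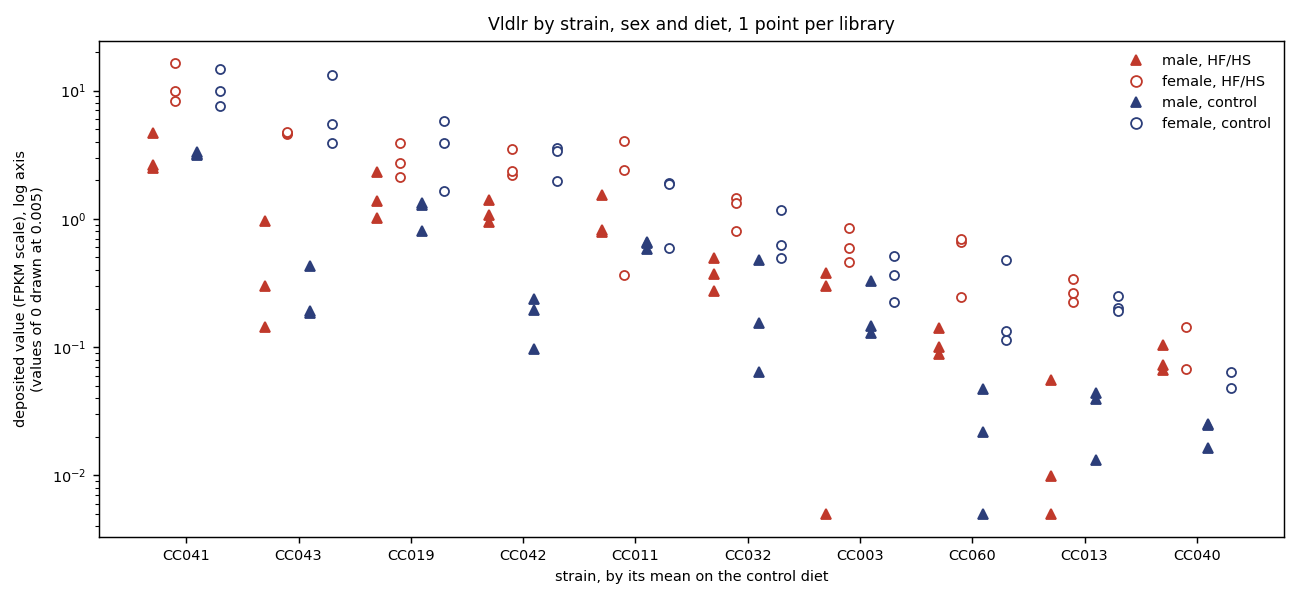
Vldlr values (y, FPKM scale, log axis, with values of 0 drawn at 0.005) in every library, by strain in order of the control mean (x). CC003 and CC060 are drawn in this order but not ranked with the others, and no order among the lowest strains is read. Triangles are males and circles females, red is HF/HS and blue is control. Male points lie below female points of the same diet in most strains, and strains span more than the diets do.

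Males had less Vldlr than females in 10 of 10 strains on the HF/HS diet and in 10 of 10 on the control diet. This and the counts of strains below include strains with few steps. On the control diet, CC040 males held 2, 3 and 3 steps, and CC040 females 9 and 7. CC003 males held 2, 4 and 2 on that diet, and CC003 females 5, 7 and 3. On the HF/HS diet males averaged 0.832 ± 1.05 (SD, n = 30) and females 2.77 ± 3.56 (SD, n = 29). On the control diet males averaged 0.595 ± 0.958 (SD, n = 30) and females 2.91 ± 3.97 (SD, n = 29). Over both diets males averaged 0.713, below the filter minimum of 1, and females 2.84. The sexes were therefore tested with no filter on low values, where male minus female was -0.73 on HF/HS (adjusted p = 1.55e-11) and -0.86 on control (adjusted p = 1.89e-14). Sex differences were common in these livers: 20.3% of the 12203 genes that passed the filter were called lower in males on HF/HS and 18.8% on control. All males lay below all females in 7 strains on HF/HS and in 8 on control, where 14.6% and 12.9% of gene and strain pairs did so over all genes. In CC043, males had 0.193, 0.185 and 0.427 and females 5.45, 13.3 and 3.90 on the control diet, with no overlap. In CC041, males had 2.62, 2.51 and 4.67 and females 16.3, 9.88 and 8.27 on the HF/HS diet, again with no overlap.

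By diet, Vldlr was not called: 0.13 ± 0.0594 over all strains (adjusted p = 0.0888), 0.19 ± 0.0830 in males (adjusted p = 0.0858) and 0.06 ± 0.0851 in females (adjusted p = 0.663). Means were 1.78 ± 2.76 in HF/HS livers and 1.73 ± 3.07 in control livers (SD, n = 59 each), and medians were 0.804 in HF/HS livers and 0.474 in control livers. The call depends on the pseudocount and on which strains and replicate numbers are kept. With 0.1 in place of 1, which gives more weight to low values, the difference was 0.39 over all strains (adjusted p = 0.00418). It was 0.53 in males (adjusted p = 0.00672) and 0.24 in females (adjusted p = 0.317). The diet values given here come from fits with the filter, which Vldlr passed only where it was high. Males averaged 0.713, below the filter minimum of 1, so no weight is put on calls of Vldlr by diet in males. Leaving out CC043, whose female control libraries reached 13.3, also brought a call over all strains (0.16, adjusted p = 0.0408). Leaving out 1 replicate number in 1 sex and diet, Vldlr stayed uncalled in 10 of 12 settings over all strains and in 10 of 12 in males. It was called in both without female HF/HS replicate 1 (adjusted p = 0.0189 over all strains and 0.0475 in males). The same held without female control replicate 2 (adjusted p = 0.0442 over all strains and 0.0378 in males). Each of these settings leaves out only female libraries, across strains, and the male difference itself stayed at 0.19. Over the strains, the difference was above 0 in 9 of 10.

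In 1 group Vldlr rose, CC042 males (0.86 ± 0.263, adjusted p = 0.0403), where 1.52% of gene and group pairs rose over all genes and groups and 2.47% in that group. This call comes from the fit with the filter, which Vldlr passed only where it was high. No result without the filter is given for single groups, so no weight is put on the call. CC042 males had 0.937, 1.07 and 1.41 in HF/HS livers, against 0.237, 0.196 and 0.0966 in control livers, with no overlap. CC040 males stood apart in the same way at far lower values: 0.0659, 0.104 and 0.0727 in HF/HS livers, which are 8, 12 and 10 steps, against 0.0164, 0.0249 and 0.0253 in control livers, which are 2, 3 and 3 steps. HF/HS libraries lay above all control libraries in 5 of 20 groups and below them in none, where 11.1% and 10.6% of all gene and group pairs did so. Others of the 5 also rested on few steps. CC040 females had 2 libraries per diet, and their HF/HS 2 and control 1 both held 9 steps. CC060 males held 18, 13 and 14 steps on HF/HS, against 3, 6 and 0 on control. The test of the difference of the diet effect between males and females, also from the fit with the filter, was not called (0.13 ± 0.119, adjusted p = 0.707).

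**Figure D4:**
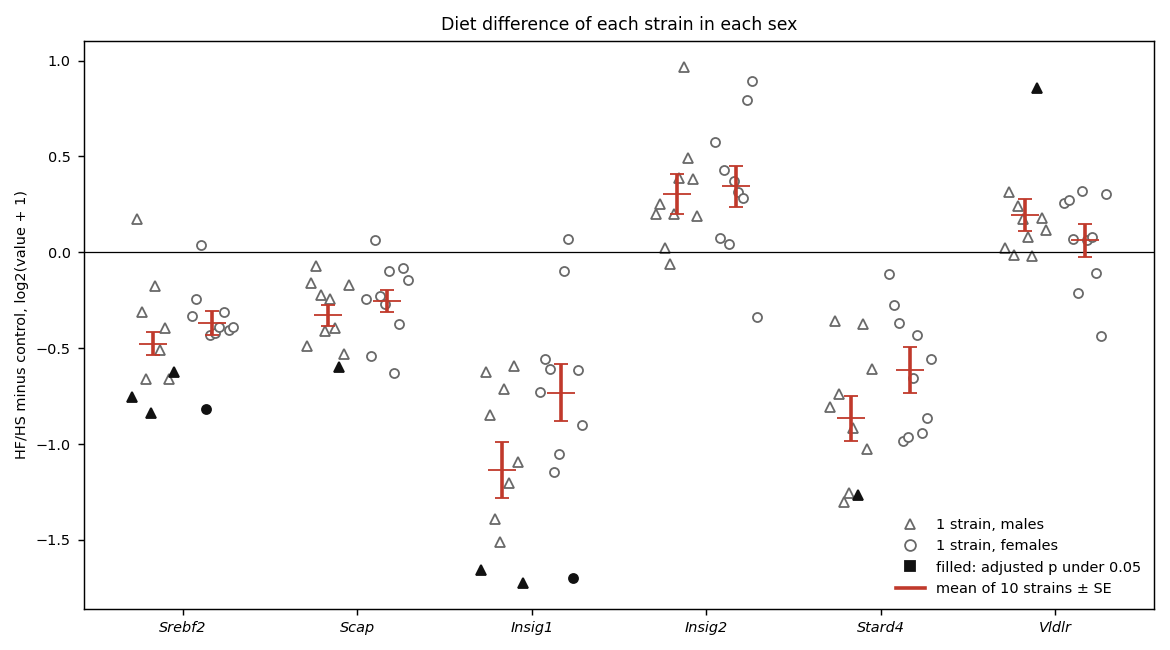
Difference HF/HS minus control in log2(value + 1) (y) for each gene (x), 1 point per strain, with males as triangles left of females as circles. Filled points are called, and red bars are the mean of 10 strains with its SE. Points of Srebf2, Scap, Insig1 and Stard4 lie below 0 with few exceptions, those of Insig2 and Vldlr mostly above.

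Srebf2 and Insig2 also differed between the sexes, in opposite directions. Male minus female, Srebf2 differed by -0.39 ± 0.0623 on HF/HS (adjusted p = 2.06e-07) and by -0.28 ± 0.0623 on control (adjusted p = 0.000116), and was lower in males in 9 of 10 strains on each diet. It averaged 7.63 ± 2.74 in males (SD, n = 30) and 10.3 ± 3.67 in females (SD, n = 29) on HF/HS, and 10.9 ± 3.68 in males and 13.7 ± 5.24 in females on control. Insig2 was higher in males by 0.33 ± 0.106 on HF/HS (adjusted p = 0.00815) and by 0.37 ± 0.106 on control (adjusted p = 0.00319). It averaged 348 ± 120 in males and 269 ± 73.7 in females on HF/HS, and 284 ± 107 in males and 218 ± 88.8 in females on control. Over all genes, 25.1% on HF/HS and 24.8% on control were called higher in males, and 20.3% on HF/HS and 18.8% on control lower. With 1 value per strain, the Insig2 difference on HF/HS was not called (adjusted p = 0.0770). Insig1 was lower in males on HF/HS (male minus female -0.39 ± 0.147, adjusted p = 0.0252) and not called on control (0.02 ± 0.147, adjusted p = 0.948). That call was lost without CC003 and CC060 (adjusted p = 0.124) and with 1 value per strain (adjusted p = 0.160). Leaving out 1 replicate number in 1 sex and diet, it was kept in 8 of 12 settings (adjusted p up to 0.135). Neither Scap nor Stard4 was called between the sexes on either diet. None of the 6 diet effects passed the test of a difference between males and females, where 0.877% of all genes did; for Stard4 the gap was -0.25 ± 0.167 (unadjusted p = 0.140, adjusted p = 0.585). All males lay above all females for Insig2 in 3 strains on HF/HS and 4 on control, where 17.3% and 15.9% of gene and strain pairs did so. All males lay below all females for it in 1 strain on HF/HS and 0 on control, where 14.6% and 12.9% of gene and strain pairs did so.

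The lists of other genes around this sensor were set up with earlier results of these data known, and are described by counts. Of all genes tested, the share to set beside these counts, 17.2% rose and 15.4% fell. All 20 cholesterol synthesis enzymes, the best known targets of SREBP2, fell, with a median of -1.26, where the median of all genes tested was 0.000588. Sqle, the squalene epoxidase, fell by 2.72 ± 0.142 and averaged 15.02 ± 20.5 in HF/HS livers and 65.4 ± 34.1 in control livers (SD, n = 59 each). Idi1, an isomerase of isoprenoid units, fell by 2.09 ± 0.110, and Cyp51, the lanosterol demethylase, by 1.91 ± 0.108. A list of 15 tested genes held the gene of another SREBP and genes linked to cleaving, holding or degrading parts of the sensor. Of the 15, 5 rose, the SREBP gene among them, and 4 fell, with a median of 0.01. Mbtps1, the protease that makes the first cut in SREBPs, rose by 0.09 ± 0.0167 (adjusted p = 1.98e-05), and averaged 30.0 ± 2.73 in HF/HS livers and 28.1 ± 2.63 in control livers (SD, n = 59 each). This shift was small beside those of Insig1 and Stard4.

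Of 12 tested lipoprotein receptors, their partners and lysosomal sterol carriers, 3 rose and 5 fell, with a median of 0.01. Beside this count and those below, 17.2% of all genes tested rose and 15.4% fell. Scarb1, the HDL receptor, rose by 0.25 ± 0.0467 (adjusted p = 1.51e-05), and Npc2, which hands cholesterol out of lysosomes, fell by 0.25 ± 0.0288 (adjusted p = 3.17e-11). Of 10 tested START and sterol transfer proteins, relatives of STARD4 by task, 3 rose and 1 fell, with a median of 0.01. Gramd1b, a carrier of cholesterol from the plasma membrane, is among the 3, with a difference of 0.42 ± 0.0406 (adjusted p = 5.07e-14). It averaged 1.63 ± 0.703 in HF/HS livers and 0.918 ± 0.240 in control livers (SD, n = 59 each). Since it passed the filter of a mean of at least 1 only through HF/HS livers, no weight is put on its call. Gramd1a, its relative, fell by 0.20 ± 0.0331 (adjusted p = 1.44e-06). Scp2, a peroxisomal sterol carrier, rose by 0.24 ± 0.0376 (adjusted p = 1.88e-07). The list for LXR, which senses oxidised sterols, had 9 tested genes, of which 6 rose and 1 fell, with a median of 0.20; Mylip is in it and in the receptor list. The sterol exporter genes Abcg5 and Abcg8 rose by 0.72 ± 0.0673 and 0.54 ± 0.0697. A further pair of lists holds genes linked to Vldlr in mouse liver. All 8 genes of PPARG and fat storage rose (median 0.58), among them Pparg by 0.73 ± 0.0609, and of 9 ATF4 and ER stress genes 1 rose and 2 fell (median -0.02), with Atf4 at -0.19 ± 0.0400.

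The genes whose values moved most like each of the 6 were found over 94 libraries of 8 strains, after the mean of each strain and sex was taken off. Such correlations include the diet difference, and the libraries share scaling and depth. Among the genes most like Srebf2 were the cholesterol synthesis enzymes Msmo1 (r = 0.82), Cyp51 (r = 0.80), Idi1 (r = 0.79) and Dhcr7 (r = 0.79). Among the 5 most like Stard4 were the enzymes Lss (r = 0.90), Cyp51, Fdps and Tm7sf2 (r = 0.89 each), and among those most like Insig1 were Sc5d (r = 0.87), Lss, Mvd (r = 0.86 each) and the acyl-CoA synthetase Acsl3 (r = 0.85). Scap and Insig2 had other company. Scap was most like Ago1 (r = 0.72), Mgam, Col18a1, Hgfac and Hs3st3b1, and Insig2 was most like Clpx (r = 0.85), Mad2l2, St5, Ormdl3 and Dtx4. None of these 10 was in the lists. Vldlr had no close match, with Ell3 first at r = 0.58.

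Within the set, Insig1 and Stard4 had r = 0.80, Srebf2 and Stard4 r = 0.75, and Insig2 and Stard4 r = -0.49. With the mean of each diet group also taken off, so that only libraries of 1 group were compared, these became 0.55, 0.39 and -0.30. Against the mean of the 20 enzymes, r was 0.91 for Stard4, 0.81 for Insig1, 0.78 for Srebf2, 0.55 for Scap, -0.37 for Insig2 and -0.13 for Vldlr. Within groups it was 0.70 for Stard4, 0.58 for Insig1, 0.48 for Srebf2, 0.19 for Scap, -0.05 for Insig2 and -0.05 for Vldlr.

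Markers of liver cell types were read beside these differences. The hepatocyte gene Alb was listed at 0 in 104 of the 120 columns, a value that cannot be read as absence here. The other hepatocyte markers were high in every library, with a summed level of 14437 to 49726 in HF/HS livers and 19595 to 109642 in control livers. Of 6 of them, 5 fell and 1 rose, where 15.4% of all genes tested fell and 17.2% rose. Macrophage markers summed to 58.2 to 865 in HF/HS livers and 115 to 689 in control livers, and 3 of 5 rose. Of the stellate cell markers 3 of 5 rose (sums of 146 to 345 in HF/HS livers and 117 to 330.4 in control livers), and of the endothelial markers 2 of 5 (sums of 55.1 to 118 in HF/HS livers and 50.6 to 127 in control livers). The median sum on HF/HS and on control was 287 and 255 for macrophages and 90.8 and 85.3 for endothelium. For stellate cells it was 226.7 and 228.2, so that sum did not follow the count. Bile duct and lymphocyte markers stayed at low sums, up to 7.36 and 8.83 in HF/HS livers and up to 5.83 and 9.60 in control livers. The fat cell markers summed to at most 402 in HF/HS livers and 13.4 in control livers, with Lep and Plin1 at a median of 0. The median of each fat cell marker over all libraries was at most 0.0774. The 1 of 4 that passed the filter rose, but it passed only through libraries where it was high, so nothing is read from this. The muscle markers Ckm, Mb and Myh1 also had a median of 0. The part of these shifts in the differences of the 6 genes was not tested.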

How the data were processed

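Liver RNA sequencing libraries of 10 strains, both sexes and both diets were used through the authors' deposited table, which holds FPKM values that the authors rescaled: the upper quartile of each of the 120 columns was between 9.992 and 10.0. The build mm10 and the tools Cufflinks 2.2.1, TopHat2 2.1.1 and Bowtie2 2.2.5.0 stand, without roles, in the submitters' processing notes. Per the labels' protocols, both an rRNA-depletion and an mRNA kit were used, without saying for which library. For the scaling formula and the annotation release, nothing was found in the sources used here. The table holds no read counts, so relative depth was taken from the steps of low values. Starts in the table count from 0 and are printed counting from 1.

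The 6 genes, the gene lists and the tests were chosen with earlier results of these data known. The 118 columns left were fitted as log2(value + 1) in limma 3.58.1 (R 4.3.3, statmod 1.5.0) with 1 mean per group, 78 residual degrees of freedom and a trended, robust prior, over 12203 genes with a mean of at least 1. Contrasts were two-sided means over groups of equal weight. Strain differences on the control diet used 8 strains, without CC003 and CC060. The fit was tested on simulated data. Tables and figures were made in Python. The 6 genes are always named, as are up to 4 genes per list with the lowest p and the genes most like each of the 6 by Pearson r. Some genes that these rules could name are not reported here.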

Additional observations from a re-analysis of the deposited data

How the results depend on the processing

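No called value of the 6 genes changed sign, and 1370 of 1414 kept their side of the threshold under the alternatives: another pseudocount (0.1 or 5), filter (none, or a mean of at least 5), scaling or prior, a replicate block, 1 value per strain, each strain, both CC003 and CC060 or each replicate number left out, and all 120 columns. Diet over all strains kept its call under 36 of 36 alternatives for Srebf2, Scap, Insig1, Insig2 and Stard4 each, and under 31 of 35 for Vldlr. The cause of each change below was not tested.

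With a pseudocount of 0.1, Vldlr was called over all strains (0.385) and in males (0.534), where no weight is put on the call. With 1 value per strain, Insig2 lost its call in females (0.344) and males (0.304), as did male minus female on HF/HS for Insig1 (-0.387) and Insig2 (0.328). That fit called 2071 genes by diet (3975 otherwise), 555 in females (2157 otherwise), 685 in males (2555 otherwise), 3269 by sex on HF/HS (5543 otherwise) and 3087 by sex on control (5312 otherwise). For unequal diet effects of the sexes limma then called 0 genes, where it otherwise called 107, with 710 at an unadjusted p under 0.05. Without CC003 and CC060, Insig1 male minus female on HF/HS was not called (-0.283), Srebf2 was called for unequal diet effects among strains (adjusted p = 0.0329) and Insig1 for strain differences (adjusted p = 0.0325), and 60 genes were called for unequal diet effects of the sexes. Insig2 lost its call in females without CC003 (0.319), CC042 (0.294) or CC043 (0.284), and in males without CC040 (0.294), CC041 (0.230), CC042 (0.283) or CC043 (0.295). Without CC043, Vldlr was called over all strains (0.157). Without CC032 or CC043, 1417 genes were called in females. Unequal diet effects among strains were called for 1093 genes without a filter and 450 at a mean of at least 5, against 676. Insig1 strain differences were called with size factors (adjusted p = 0.0496), all 120 columns (adjusted p = 0.0417) and all 10 strains (adjusted p = 0.0102), and those of Stard4 with all 10 strains (adjusted p = 0.000999886).

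Leaving out 1 replicate number in 1 sex and diet gave 0.0882 to 0.162 for Vldlr by diet over all strains and 0.176 to 0.217 in males, and 0.278 to 0.465 for Insig2 in females and 0.223 to 0.375 in males. Of these 12 settings, 10 left Vldlr uncalled over all strains and 10 in males, and Insig2 kept its call in 9 in females and 8 in males. Male minus female on HF/HS then ran from -0.152 to -0.0406 for Scap, -0.492 to -0.304 for Insig1, 0.248 to 0.389 for Insig2 and -0.268 to -0.206 for Stard4, with the call as before in 8 of 12 for Insig1 and 11 of 12 for each of the other 3. The adjusted p for unequal diet effects of Srebf2 among strains ran from 0.0467 to 0.504, the low end without CC060 male control 3 alone, and that for strain differences of Insig1 from 0.00483 to 0.593, uncalled in 10 of 12. Genes called ran from 1396 to 2672 for diet in females, the high end without CC060 male control 3 alone. For unequal diet effects they ran from 34 to 132 between the sexes and from 283 to 961 among strains, the 961 without CC060 female control 1. Of the pairs of a gene and a strain, 10 to 21 were called (18 otherwise), and of the pairs of a gene and a strain and sex group 3 to 18 (10 otherwise), again highest without CC060 female control 1. These 2 single libraries were left out after the values were seen. Without CC060 female control 1, Insig1 was called for strain differences (adjusted p = 0.0232) and Stard4 for male minus female on HF/HS (-0.233).

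The replicate numbers did not pair the samples: over 58 pairs, deviations correlated at -0.222 to 0.364 (median -0.012), with 9 above 0.1. With a replicate block, Srebf2 differed by -0.42 over all strains and no call of the 6 genes by diet over all strains changed.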
